A study of Rattus norvegicus with 8 samples.

Results

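Of the 15590 genes listed for the rat Achilles tendon, 9 are described here: Lep, Adipoq, Retn, Cfd, Rbp4 and Nampt, whose products fat tissue secretes, and Mc2r, Mrap and Adrb3, which serve adipocytes as receptors or receptor partners. They were picked by gene symbol, and the list was chosen by their FPKM in the same comparison that is described below, so their levels, changes and adjusted p-values are a description and support nothing. All 9 had a row and all 9 passed the filter on low values, among 13863 genes tested. The rats were wild-type (WT) male Sprague-Dawley animals of 8 to 10 weeks, and polyadenylated RNA came from the right Achilles tendon. In the 0 h p.r. (post-running) group, 4 samples came from rats killed directly after 1 h of treadmill running at 20 m/min on a 10 degree incline, and in the NC group 4 samples came from naïve rats that had not run. A label says that the rats of both groups were killed immediately and gives no hour, while in the scheme of the study's treadmill experiment the control rats were killed together with a later, rested group. If the hour differed between the groups, it and the run cannot be told apart. The labels do not say that samples were pooled, nor name the animals, so the p-values measure the spread between these samples.

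White adipocytes store triglyceride in a single droplet and release hormones, called adipokines, into the blood. Leptin (Lep) reports fat stores to the brain and is transcribed mainly in adipocytes, and adiponectin (Adipoq) acts on the liver and muscle through AdipoR1 and AdipoR2. Lipolysis, the release of fatty acids from the droplet, is switched on through cAMP by β-adrenergic receptors and, in rodents, also by the corticotropin receptor Mc2r, which needs the accessory protein Mrap to reach the cell surface.

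The bulk of the members moved one way. In the 0 h p.r. tendons, 5 of the 9 genes were lower past both thresholds (Lep, Adipoq, Retn, Cfd and Mc2r; adjusted p under 0.05 and a fold of at least 2), beside 0.894% of all tested genes that were lower by the same rule. None of the 9 was higher past both thresholds, beside 1.8% of all tested genes. Nampt was higher at the adjusted p alone, with a fold under 2, as were 3.49% of all tested genes. Since the members were selected on this contrast, nothing is read from these shares. Mrap and Rbp4 were lower on average but missed the adjusted p threshold, and the interval of Adrb3 included no change. The median log2 fold change was -1.69 over the 9 members and -0.0014 over all tested genes.

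The upstream sequences of the 5 genes past both thresholds are shown as a description. The genes were chosen by the contrast in which they fell, so nothing is read from a motif that some of them share. RefSeq start sites were available for 6 of the 9 members (Rbp4 besides these 5). Each sequence runs 5′ to 3′ along the coding strand, from 250 bases before to 50 bases after the start, in the build GRCr8. Expression was counted on the older build Rnor_6.0 and no coordinate was converted. Capitals mark the C/EBP core TTGCNNAA and the CCAAT box, each on either strand. The windows lie at chr4:58626288-58626587 (plus strand) for Lep, chr11:91240120-91240419 (minus strand) for Adipoq, chr12:6508524-6508823 (plus strand) for Retn, chr7:10465447-10465746 (minus strand) for Cfd and chr18:64290714-64291013 (minus strand) for Mc2r.
Lep: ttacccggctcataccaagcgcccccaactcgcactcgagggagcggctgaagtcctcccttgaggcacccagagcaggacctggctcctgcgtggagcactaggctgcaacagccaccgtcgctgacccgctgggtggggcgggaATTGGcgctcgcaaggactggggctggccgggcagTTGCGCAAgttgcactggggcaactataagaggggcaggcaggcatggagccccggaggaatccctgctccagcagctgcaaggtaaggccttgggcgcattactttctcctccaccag
Adipoq: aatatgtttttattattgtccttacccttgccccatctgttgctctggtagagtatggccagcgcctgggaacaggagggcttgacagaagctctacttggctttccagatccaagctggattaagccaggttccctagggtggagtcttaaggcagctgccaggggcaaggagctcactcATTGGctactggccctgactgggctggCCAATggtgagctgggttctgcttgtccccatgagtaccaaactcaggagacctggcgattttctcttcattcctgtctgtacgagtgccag
Retn: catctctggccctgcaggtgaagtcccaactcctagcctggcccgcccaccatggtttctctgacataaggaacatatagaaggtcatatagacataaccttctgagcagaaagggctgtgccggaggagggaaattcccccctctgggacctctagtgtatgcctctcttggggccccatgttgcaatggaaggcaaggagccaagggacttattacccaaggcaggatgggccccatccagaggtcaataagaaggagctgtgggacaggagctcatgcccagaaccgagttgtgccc
Cfd: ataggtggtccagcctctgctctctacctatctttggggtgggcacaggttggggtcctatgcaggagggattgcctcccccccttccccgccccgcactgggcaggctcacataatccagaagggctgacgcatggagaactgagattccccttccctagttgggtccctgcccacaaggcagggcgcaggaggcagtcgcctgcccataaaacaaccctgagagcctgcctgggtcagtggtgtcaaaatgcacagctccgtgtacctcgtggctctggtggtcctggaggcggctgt
Mc2r: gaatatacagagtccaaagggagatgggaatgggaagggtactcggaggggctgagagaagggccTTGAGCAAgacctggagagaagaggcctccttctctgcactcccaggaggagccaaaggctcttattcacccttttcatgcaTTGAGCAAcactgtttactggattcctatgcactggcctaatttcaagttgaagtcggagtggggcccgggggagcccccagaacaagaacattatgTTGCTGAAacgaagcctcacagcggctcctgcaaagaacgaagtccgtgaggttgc

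C/EBP proteins are transcription factors that act in adipocyte differentiation. The Lep window held a C/EBP core 69 bases before the start, in the palindromic form TTGCGCAA, which 0.17% of 33469 rat promoter windows of this length held. The Mc2r window held 3 cores, starting 185, 103 and 6 bases before the start, and the Rbp4 window held 1 at 150 bases. The core occurred in 10.6% of all windows. CCAAT stood 104 bases before the start of Lep and at 69 and 42 bases before that of Adipoq, and 37.5% of all windows held it. The Retn and Cfd windows held neither motif. TATAAA was found only in the Rbp4 window among the 6 (14.2% of all windows), and the cAMP element TGACGTCA (1.83%) and a repeat of AGGNCA with a spacing of 1 base (0.415%), the form bound by PPAR receptors, were in none of them. The palindrome is one form of the core, so those matches are the same site. A match here is a run of letters and not a measured site.

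All 14 adipocyte markers with a row were detected in all 8 libraries. The summed FPKM of these markers was 2450 to 4879 in the NC samples and 958.4 to 1817 in the 0 h p.r. samples. All 14 were lower on average at 0 h p.r., with no overlap of the groups for 10 of them, and 5 passed both thresholds: the lipid droplet proteins Cidec (log2 fold change -2.41, adjusted p = 0.0270 by limma) and Plin4 (-1.34, 0.0340), the lipogenic factor Thrsp (-2.03, 0.0324), the glycerol channel Aqp7 (-1.80, 0.0309) and the activin receptor Acvr1c (-1.76, 0.00740). Among all tested genes, the groups lay apart in the lower direction for 7.47%, and 0.894% were lower past both thresholds. The marker list was chosen with earlier results of these data known, so nothing is read from these shares. The median over the 14 was -1.43. With each library scaled to the same sum (TPM scaling) 1 marker passed, and with libraries weighted by their quality (array weights) 10 did. Acvr1c passed in all 8 fits that each left out 1 sample. Cidec missed the adjusted p without NC samples 1 or 2 or post-run samples 2 or 3, and Thrsp without these or post-run sample 1. Aqp7 missed it without NC samples 1, 2 or 3 or post-run samples 1, 2 or 3, and Plin4 without NC samples 3 or 4 or post-run samples 1, 2 or 3, with adjusted p up to 0.108 by limma. In whole tendon tissue, fewer adipocytes and less of these RNAs per adipocyte cannot be told apart. Of the brown adipocyte markers only Prdm16 and Ppargc1a had a row, and Ucp1 was not analysed here. The 6 markers of adipose stromal progenitors, which give rise to fat cells, summed to 329.8 to 393.1 FPKM in NC and 280.6 to 434.2 at 0 h p.r., and none passed both thresholds.

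With all 8 libraries, leptin RNA had the largest estimated change of the 9 on the log2 scale. Without post-run sample 1 the estimate of Retn was larger (-2.01 against -1.99), and without post-run sample 3 that of Mc2r was (-2.31 against -2.22). Lep (ENSRNOG00000045797) was at 84.8, 48.7, 45.0 and 34.7 FPKM in NC samples 1 to 4 and at 4.001, 11.2, 6.66 and 24.5 FPKM in 0 h p.r. samples 1 to 4. Every post-run value lay below every control value. The means were 53.3 ± 21.8 and 11.6 ± 9.10 FPKM (SD, n = 4 each), a ratio of 4.604, with a log2 fold change of -2.37 (SE 0.49, 95% interval -3.47 to -1.27, adjusted p = 0.0286 by limma). Within the post-run group the highest sample held 6.12 times the level of the lowest, against 2.44 times within NC.

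Adiponectin was among the more abundant RNAs of the table. Adipoq (ENSRNOG00000001821) stood at 688, 593, 433 and 293 FPKM in the NC samples and at 90.0, 148, 125 and 284 FPKM in the 0 h p.r. samples. The groups did not overlap, but post-run sample 4 lay just under NC sample 4. The means of 501.8 ± 174 and 162 ± 84.9 FPKM (SD, n = 4 each) gave a log2 fold change of -1.69 (SE 0.37, interval -2.53 to -0.84, adjusted p = 0.0363 by limma). By mean FPKM, Adipoq ranked 161 among the tested genes in NC and 435 at 0 h p.r.

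Resistin, a cysteine-rich hormone that fat cells secrete in rodents, varied by a similar fold within each group, 2.54 in NC and 2.64 at 0 h p.r. Retn (ENSRNOG00000001001) was at 166, 91.3, 85.5 and 65.4 FPKM in NC and at 16.2, 24.03, 14.2 and 37.5 FPKM at 0 h p.r. All 4 post-run samples were below the NC samples, and the highest of them was far below the lowest of NC. The log2 fold change was -2.14 (SE 0.35, interval -2.93 to -1.35, adjusted p = 0.0117 by limma), from means of 102 ± 44.0 to 23.0 ± 10.6 FPKM (SD, n = 4 each).

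Cfd, which encodes complement factor D or adipsin, the serine protease that cleaves factor B, was the most abundant of the 9 genes in every library. Its values (ENSRNOG00000033564) were 1500, 1080, 642 and 554 FPKM in NC and 178, 279, 242 and 430 FPKM at 0 h p.r. The groups did not overlap. Cfd fell from 944 ± 436 to 282 ± 107 FPKM (SD, n = 4 each), a log2 fold change of -1.70 (SE 0.37, interval -2.53 to -0.87, adjusted p = 0.0337 by limma). Its rank by mean FPKM was 75 in NC and 268 at 0 h p.r.

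Rbp4, the retinol carrier of plasma that liver and fat secrete, overlapped between the groups. Rbp4 (ENSRNOG00000015518) was at 295, 236, 159 and 133 FPKM in NC and at 60.7, 79.4, 54.1 and 144 FPKM at 0 h p.r. Post-run sample 4 lay above NC sample 4, and the other 3 post-run samples were below all controls. The log2 fold change was -1.32 (SE 0.34, interval -2.10 to -0.54) with an adjusted p of 0.0588 by limma, from means of 206 ± 73.7 and 84.7 ± 41.3 FPKM (SD, n = 4 each). Albumin (Alb), which defines hepatocytes, was under 1 FPKM in all 8 libraries, at 0.564 ± 0.365 FPKM in NC and 0.195 ± 0.137 at 0 h p.r. (SD, n = 4 each), and was not tested. The other hepatocyte markers with a row were Apoa1, at 0.577 ± 0.256 FPKM in NC and 0.963 ± 0.496 at 0 h p.r. (SD, n = 4 each), and Serpina1, at 4.07 to 27.1 FPKM in NC and 20.5 to 158.9 FPKM at 0 h p.r. (log2 fold change 2.44, adjusted p = 0.0670 by limma). The mean of Alb was lower after the run, as was that of Rbp4, and those of Apoa1 and Serpina1 were higher, and their part in the Rbp4 values was not tested.

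Nampt was the one member with higher values after running. Nampt (ENSRNOG00000009754) encodes the rate-limiting enzyme of NAD salvage, whose secreted form is also called visfatin, and it is transcribed in most cell types. It was at 37.3, 33.1, 32.9 and 33.9 FPKM in NC and at 67.2, 54.2, 78.9 and 52.4 FPKM at 0 h p.r., so all 4 post-run samples lay above all controls. The control values were tight, at 34.3 ± 2.04 against 63.2 ± 12.4 FPKM (SD, n = 4 each). The ratio of the means was 1.84 and the log2 fold change 0.85 (SE 0.15, interval 0.53 to 1.18, adjusted p = 0.0135 by limma). Markers of other cells in which Nampt is transcribed did not all move with it. Of the neutrophil markers, S100a9 rose from 0.362 ± 0.257 to 1.49 ± 0.298 FPKM (SD, n = 4 each; adjusted p = 0.0192 by limma), Mpo fell from 1.88 ± 0.835 to 0.339 ± 0.0914 FPKM (0.0146), and Csf3r stayed under 0.5 FPKM in all libraries and was at 0 in NC sample 2. The 5 macrophage markers summed to 49.05 to 86.27 FPKM in NC and 33.76 to 74.19 FPKM at 0 h p.r., and none passed both thresholds. Their part in the Nampt values was not tested.

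**Figure D1:**
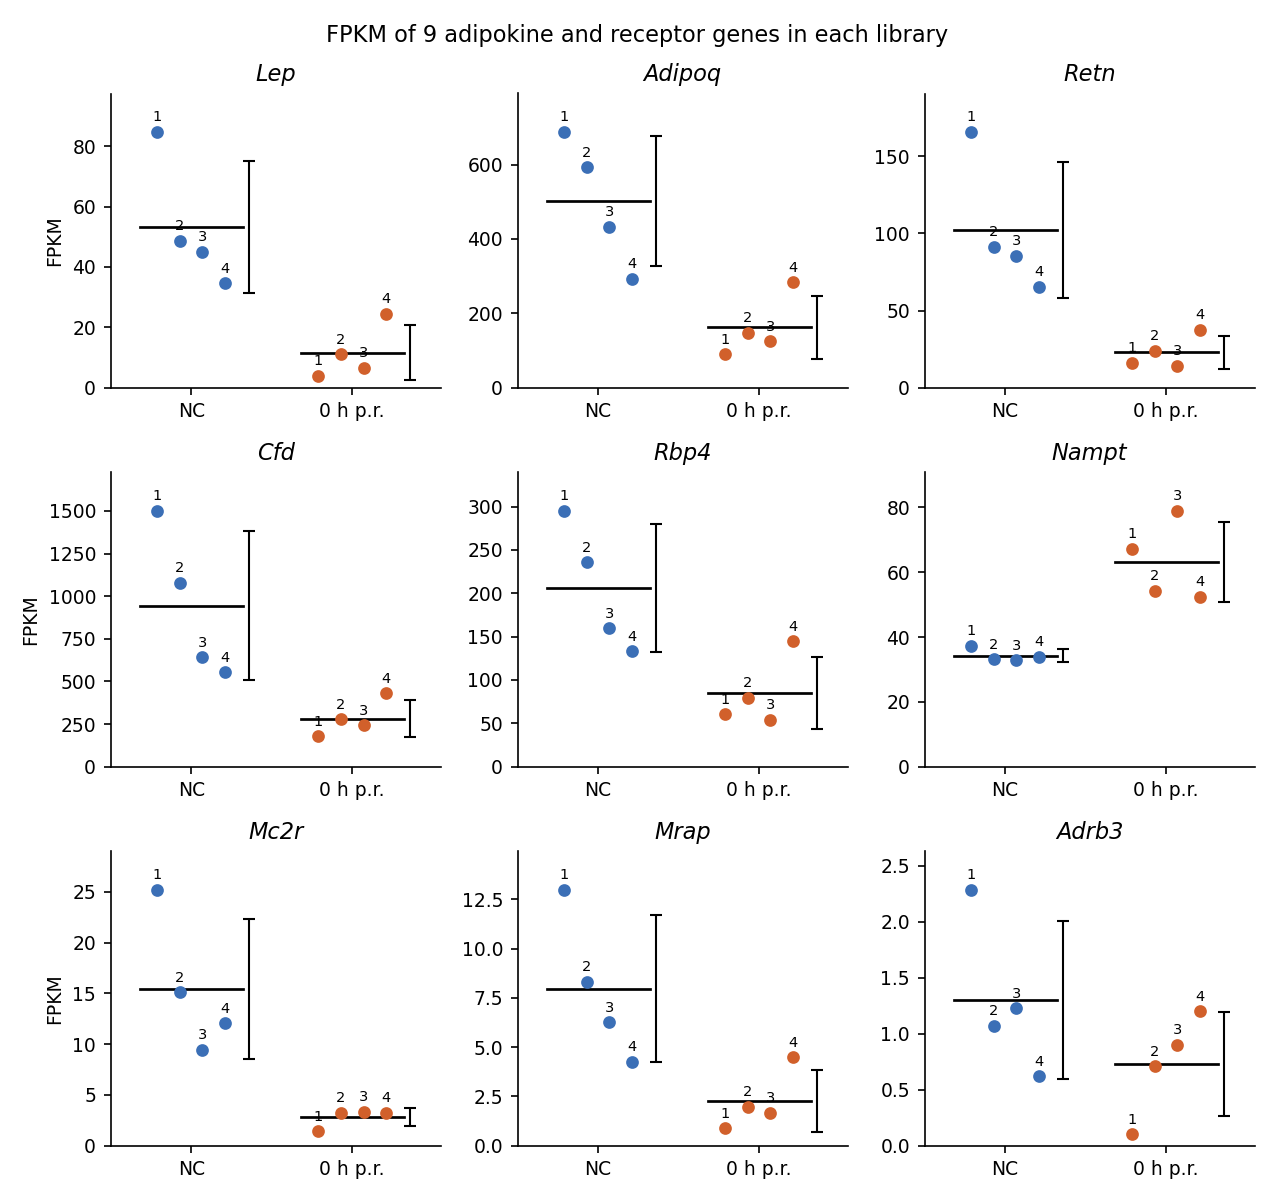
FPKM of the 9 genes (vertical axes, linear and starting at 0, with a scale of their own in each panel) in the NC and 0 h p.r. samples; points are single libraries with their replicate numbers, horizontal lines are means and bars are SD (n = 4 per group). All 4 post-run values lie below the controls for Lep, Adipoq, Retn, Cfd and Mc2r and above them for Nampt, and the groups overlap for Rbp4, Mrap and Adrb3.

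Among the receptor genes, Mc2r showed the largest ratio of all 9 members. Mc2r (ENSRNOG00000016681) was at 25.2, 15.1, 9.44 and 12.1 FPKM in NC and at 1.44, 3.26, 3.33 and 3.23 FPKM at 0 h p.r. The lowest control was well above the highest post-run sample. The means were 15.5 ± 6.89 and 2.82 ± 0.918 FPKM (SD, n = 4 each), a ratio of 5.49, and the log2 fold change was -2.23 (SE 0.32, interval -2.95 to -1.499, adjusted p = 0.00698 by limma). These levels rested on 22 to 514 recovered reads per library. Mc2r is best known from the adrenal cortex, and of the adrenal markers Star and Cyp11a1, which begin steroid synthesis, were under 1 FPKM in every library, with Cyp11a1 at 0 in post-run sample 3. Cyp11a1 had a log2 fold change of -0.72 (SE 0.28, adjusted p = 0.163 by limma) and Star one of -0.11 (SE 0.21, adjusted p = 0.817). Cyp21a1, another adrenal enzyme gene, was at 20.4 to 27.7 FPKM in NC and 21.2 to 40.1 FPKM at 0 h p.r., with a log2 fold change of 0.29 (SE 0.21, adjusted p = 0.465 by limma). The part of these markers in the Mc2r values was not tested.

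Mrap, the partner that carries Mc2r to the surface, was lower in 3 of 4 post-run samples than in any control. Mrap (ENSRNOG00000021524) was at 13.0, 8.33, 6.27 and 4.26 FPKM in NC and at 0.8997, 1.98, 1.68 and 4.50 FPKM at 0 h p.r. Post-run sample 4 exceeded NC sample 4, so the groups overlapped. The log2 fold change of -1.67 (SE 0.42, interval -2.61 to -0.73) had an adjusted p of 0.0508 by limma, with means of 7.96 ± 3.74 and 2.265 ± 1.56 FPKM (SD, n = 4 each). Mc2r was at 1.504 to 2.83 times the FPKM of Mrap in NC and at 0.718 to 1.98 times at 0 h p.r., which overlap.

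Adrb3, the β3-adrenergic receptor that drives lipolysis in rodent fat, was the least abundant member. Adrb3 (ENSRNOG00000012674) was at 2.28, 1.07, 1.23 and 0.620 FPKM in NC and at 0.104, 0.712, 0.9001 and 1.201 FPKM at 0 h p.r. Only post-run sample 1 was below all controls, and it rested on 3 recovered reads, the floor used here. The means were 1.3005 ± 0.704 and 0.729 ± 0.463 FPKM (SD, n = 4 each) and the log2 fold change was -0.57 (SE 0.37, interval -1.40 to 0.26, adjusted p = 0.413 by limma). A fold of 2 in the lower direction lay within that interval, so such a difference was not excluded at this depth. The pseudocount of 0.5 FPKM shrinks a change at this level, and with a pseudocount of 0.1 the estimate was -0.91.

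**Figure D2:**
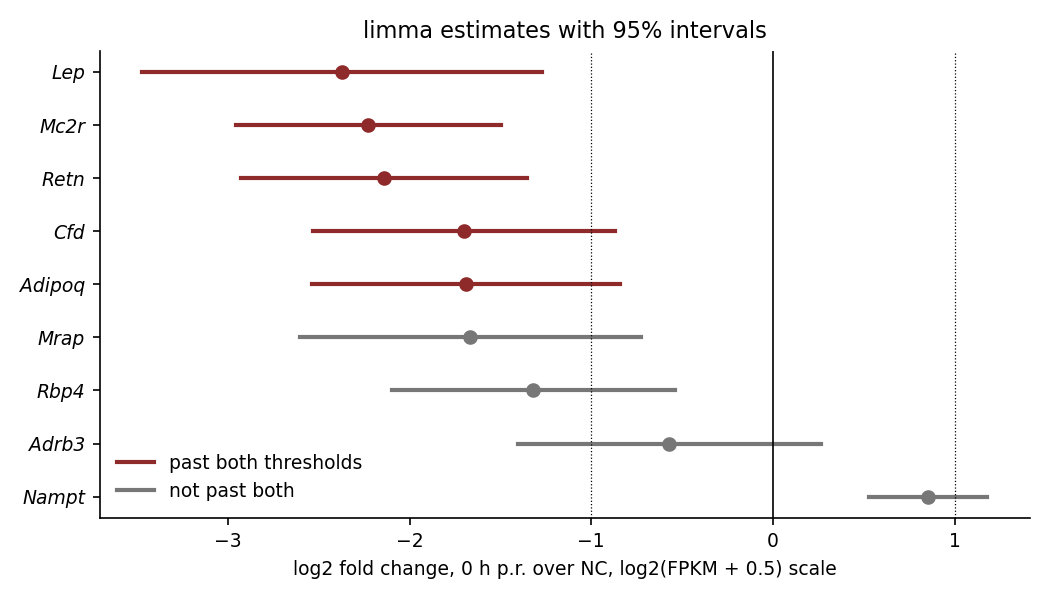
Log2 fold change of each of the 9 genes, 0 h p.r. over NC, on the log2(FPKM + 0.5) scale (horizontal axis), with bars for the 95% intervals of the limma fit (n = 4 per group); dotted lines mark a fold of 2 in either direction and the darker colour marks genes past both thresholds. Estimates run from -2.37 for Lep to 0.85 for Nampt, and the interval of Adrb3 alone spans 0.

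The groups of 5 of the 9 genes lay apart in the lower direction, beside 7.47% of all tested genes, and those of Nampt lay apart in the higher direction, beside 8.15%. In NC the order of the mean levels was Cfd, Adipoq, Rbp4, Retn, Lep, Nampt, Mc2r, Mrap and Adrb3. Neighbours in this order overlapped in their 4 values except Nampt with Mc2r and Mrap with Adrb3. At 0 h p.r. the order was Cfd, Adipoq, Rbp4, Nampt, Retn, Lep, Mc2r, Mrap and Adrb3, with Nampt now above Retn and Lep in every sample. The neighbours that did not overlap were then Nampt with Retn and Lep with Mc2r. FPKM is scaled to gene length, so these levels can be set side by side between genes.

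Within each group, the same samples tended to be highest or lowest for most members. NC sample 1 was the highest control for all 9 members and NC sample 4 the lowest for 7. Post-run sample 4 was the highest of its group for 7 members, all but Mc2r and Nampt, and post-run sample 1 was the lowest for 6. After the group means were removed, the log2 values of Adipoq and Mrap correlated at r = 0.986 over the 8 libraries, those of Lep and Adipoq at 0.940 and those of Cfd and Adipoq at 0.945. Mc2r followed the others less closely, at 0.676 with Adipoq and 0.755 with its partner Mrap. Nampt stood at -0.426 with Adipoq and at 0.0554 with Mc2r. These values are descriptions over 8 libraries, which also share their depth and tissue composition within a library.

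The mean log2 level of the 14 adipocyte markers had the same extremes, 6.92 in NC sample 1 and 5.77 in NC sample 4, and 4.17 in post-run sample 1 and 5.30 in post-run sample 4. With the group means removed, its correlation with the members was 0.808 for Rbp4 to 0.930 for Mrap among the 8 lower genes, and -0.118 for Nampt. Markers of skeletal muscle ran the other way in NC sample 1 and post-run samples 1 and 4, but not in NC sample 4. Their mean log2 level was 7.70 in NC sample 1, 8.61 in NC sample 4, and 9.02 and 9.31 in NC samples 2 and 3. It was 11.3 in post-run sample 1 and 6.44 in post-run sample 4, the highest and lowest of that group. None of the 7 muscle markers passed both thresholds, and the summed muscle FPKM was 3703 to 6637 in NC and 989.4 to 33410 at 0 h p.r. Mitochondrial genes held 31.1% of the FPKM in NC sample 2 and 16.3 to 21.9% in the others. The part of muscle content or of this sample in the members' changes was not tested. Leaving out each sample in turn, Retn and Mc2r stayed past both thresholds in all 8 fits. Lep, Adipoq and Cfd missed the adjusted p in 6 of 8 fits, those without NC samples 1, 2 or 3 or post-run samples 1, 2 or 3, with highest adjusted p of 0.0857, 0.105 and 0.0988 by limma. Without post-run sample 4, Mrap and Rbp4 passed as well, at adjusted p of 0.0150 and 0.0146.

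**Figure D3:**
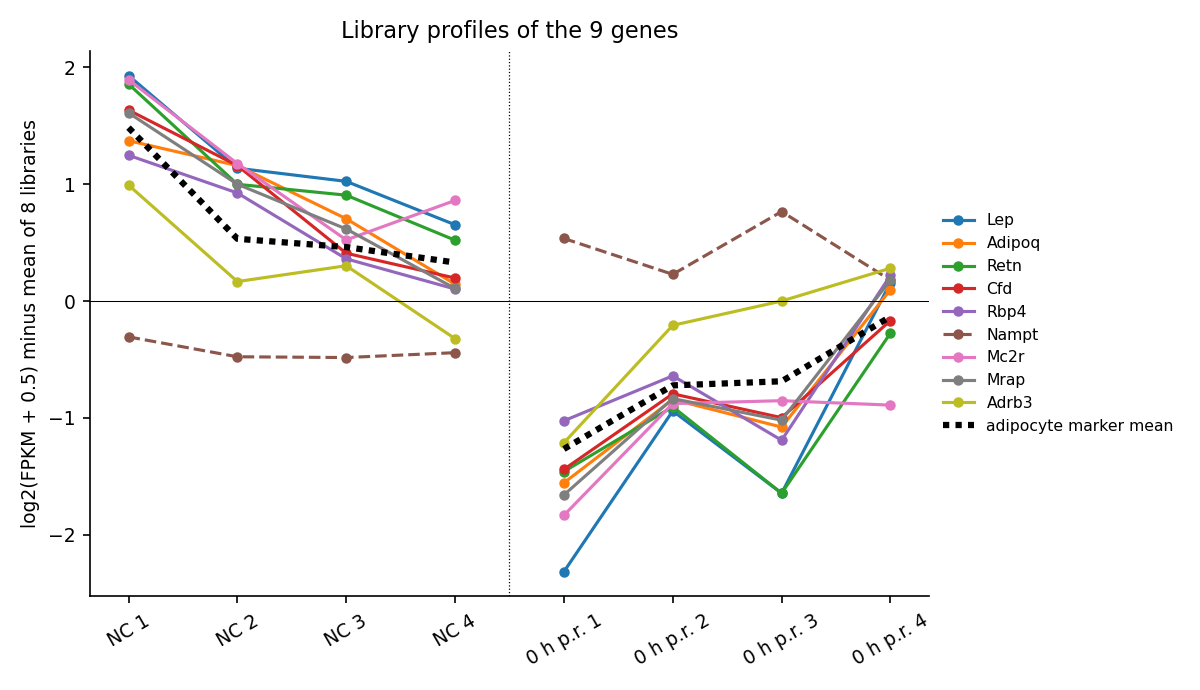
Log2(FPKM + 0.5) of each of the 9 genes minus its mean over the 8 libraries (vertical axis), by library (horizontal axis; the numbers are names and carry no order); the thick dotted black line is the mean of the 14 adipocyte markers treated the same way, and the dashed line is Nampt. NC sample 1 is the highest control for all 9 genes and for the marker mean, post-run sample 1 is the lowest of its group for 6 genes, and Nampt varies little among the controls.

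To ask how far the members departed from the marker list, each was set against the mean log2 level of the 14 adipocyte markers in the same library. These differences come from the contrast that chose the members and carry no test. Relative to the markers, Lep stood at -0.47 ± 0.13 in NC and -1.44 ± 0.64 at 0 h p.r. (log2 units, SD, n = 4 each), a difference of -0.97 without overlap. Retn differed by -0.74 and Mc2r by -0.82, also without overlap. Adipoq (-0.29), Cfd (-0.30), Mrap (-0.26) and Rbp4 (0.086) all overlapped between the groups on this scale. Nampt was 2.26 higher relative to the markers. With the median of the markers in place of the mean, Mc2r overlapped between the groups (-0.67), and Lep (-0.82) and Retn (-0.59) did not. Against Plin1 alone, Retn (-0.41) and Mc2r (-0.50) overlapped and Lep (-0.64) did not. The marker Gpd1 was at 136, 53.8, 88.8 and 49.9 FPKM in post-run samples 1 to 4. That is the order of the muscle marker mean and the reverse of the order of Adipoq. Among the controls Gpd1 was highest in sample 1 (149 FPKM), where the muscle marker mean was lowest. Its part in the differences from the marker mean was not tested.

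Set against adiponectin alone, the FPKM of Lep was 12.3, 8.21, 10.4 and 11.8% of that of Adipoq in the NC samples and 4.45, 7.56, 5.31 and 8.62% in the post-run samples. One post-run sample was therefore above 1 control. Mc2r was at 2.18 to 4.11% of Adipoq in NC and 1.14 to 2.65% at 0 h p.r., and Retn was at 15.4 to 24.1% and 11.3 to 18.0%, both with overlap. Cfd kept to 148.3 to 218.1% of Adipoq in NC and 151.5 to 197.5% at 0 h p.r. Adrb3 was at 0.181 to 0.332% of Adipoq in NC and 0.116, 0.482, 0.717 and 0.423% at 0 h p.r. Of these 4 values 3 lay above every control, and the low one rested on 3 reads. On the log2(FPKM + 0.5) scale Adrb3 lay apart and higher relative to the marker mean (0.83), the marker median (0.98), Plin1 (1.16) and Adipoq (1.12), differences that the pseudocount enlarges at this level.

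**Figure D4:**
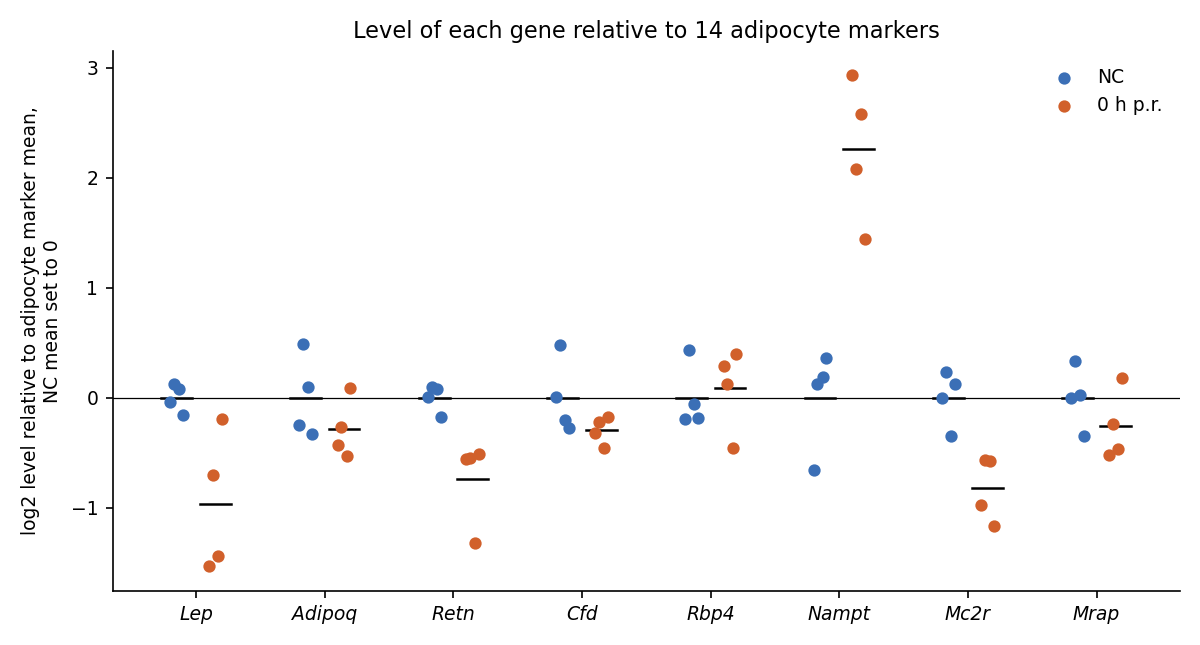
Log2 level of 8 of the 9 genes relative to the mean of 14 adipocyte markers in the same library, with the NC mean of each gene set to 0 (vertical axis); points are libraries and short lines are group means (n = 4 per group). Adrb3 is left out because the pseudocount distorts its ratio. Lep, Retn and Mc2r lie below their controls, Nampt lies above, and Adipoq, Cfd, Rbp4 and Mrap overlap.

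The genes around the members were taken from 5 lists. Their counts of calls stand beside 0.894% of all tested genes lower and 1.8% higher past both thresholds. In lists of this size nothing is read from such counts. Of 19 tested rows for other factors that fat tissue secretes, 2 were lower and 3 higher past both thresholds, with a median log2 fold change of -0.10. The lower ones were angiotensinogen, Agt, at 68.6 ± 33.7 FPKM in NC and 16.3 ± 2.35 at 0 h p.r. (log2 fold change -1.94, adjusted p = 0.00720 by limma), and the adiponectin paralogue C1qtnf9 (-1.28, 0.0499). Among the higher ones were the cytokine Il6 (5.49, 0.000360) and the chemokine Ccl2 (3.33, 0.00294), which many cell types besides adipocytes make. Il6 went from 0 to 0.326 FPKM in NC to 10.4 to 42.8 FPKM at 0 h p.r. The most abundant of the list, the peroxidase Gpx3 (1130 ± 216 and 1094 ± 309 FPKM, SD, n = 4 each) and chemerin, Rarres2 (234.6 ± 53.8 and 208 ± 47.5 FPKM), had log2 fold changes of -0.074 (adjusted p = 0.912 by limma) and -0.17 (0.712). Without any one of 7 samples, all but NC sample 4, C1qtnf9 missed a threshold, with adjusted p up to 0.124 by limma.

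Of 15 tested rows for adipokine receptors and their signalling, 1 rose past both thresholds and none was lower. It was Socs3, the inhibitor that leptin and Il6 receptors induce, at 16.7 ± 7.85 FPKM in NC and 150 ± 40.9 at 0 h p.r. (SD, n = 4 each; log2 fold change 3.21, adjusted p = 0.00152 by limma). Stat3, the transcription factor below the leptin receptor, rose by 0.86 (adjusted p = 0.0232 by limma) and the phosphatase Ptpn1 by 0.84 (0.0368), both under a fold of 2. The leptin receptor Lepr, at 3.22 ± 0.291 and 3.55 ± 0.669 FPKM (SD, n = 4 each), had an estimate of 0.11. Adipor1 and Adipor2 had 0.24 and 0.29, and none of these receptors passed. Stra6, on the same list, fell under the filter and was not tested. It was at 0.0605 ± 0.0769 FPKM in NC and 0.470 ± 0.362 FPKM at 0 h p.r. (SD, n = 4 each). Adipor1 and Cap1, a receptor reported for resistin, were the most abundant of the list by their mean over both groups (Socs3 was above them at 0 h p.r.), at 95.9 ± 16.6 and 113 ± 15.9 FPKM and at 90.85 ± 9.004 and 104 ± 11.7 FPKM in NC and at 0 h p.r.

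Of 20 tested rows for melanocortin, adrenergic and cAMP signalling, 1 was lower past both thresholds and none higher, with a median of 0.019. This was the lactate receptor Hcar1, which restrains lipolysis in adipocytes, at 4.96, 5.20, 8.03 and 6.12 FPKM in NC and 0.531, 1.40, 0.991 and 3.91 FPKM at 0 h p.r. (log2 fold change -1.77, adjusted p = 0.0368 by limma). That call was lost in 7 of 8 fits that each left out 1 sample, all but that without post-run sample 4, with adjusted p up to 0.105 by limma. Mc5r, another melanocortin receptor of rodent fat, overlapped between groups (-1.43, adjusted p = 0.108 by limma), and Mc4r was at most 0.641 FPKM. The G protein subunit Gnai2 and the protein kinase A subunit Prkar1a, the most abundant of the list by their mean over both groups, had estimates of 0.032 and 0.38 (adjusted p of 0.922 and 0.0864 by limma).

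Neither of the other 2 lists had a lower call. None of the 11 tested NAD salvage genes, a list that leaves out Nampt, passed both thresholds, with a median of -0.10, and the largest estimate was -1.29 for Nnmt, which methylates the nicotinamide that Nampt uses (adjusted p = 0.0527 by limma). In the alternative complement pathway, in which Cfd acts, 1 of 7 tested genes passed, the decay accelerating factor Cd55, which rose from 18.8 ± 6.16 to 51.8 ± 19.96 FPKM (SD, n = 4 each; log2 fold change 1.41, adjusted p = 0.0326 by limma). It missed the adjusted p without NC samples 1, 2 or 3 or post-run samples 2 or 3, with values up to 0.101 by limma. C3, the substrate of the convertase, was at 0.979 ± 0.460 FPKM in NC and 0.860 ± 0.430 FPKM at 0 h p.r. (SD, n = 4 each).

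**Figure D5:**
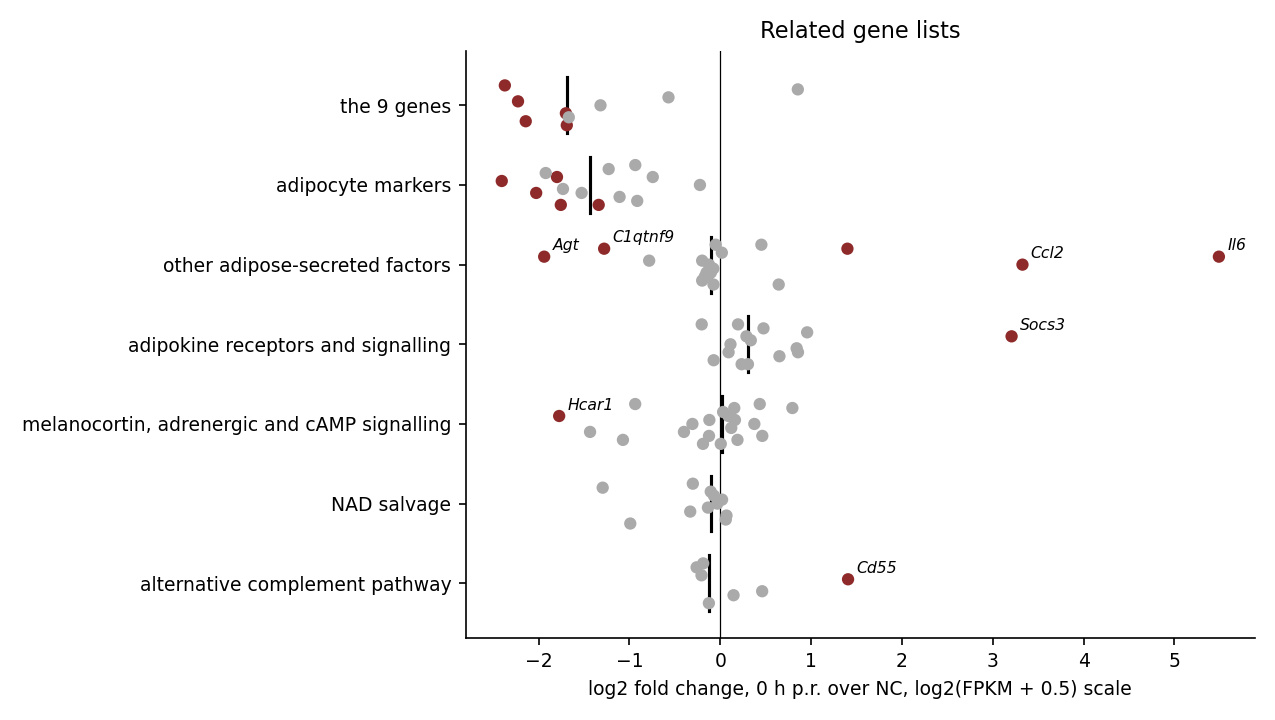
Log2 fold change, 0 h p.r. over NC, on the log2(FPKM + 0.5) scale (horizontal axis) for every tested gene of 7 lists; points are genes, dark points passed both thresholds (those named in the text are labelled, outside the 2 top rows) and vertical bars are list medians. The adipocyte markers (median -1.43) lie with the 9 genes, and the other 5 lists have medians between -0.12 and 0.30.

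By likeness of their profile over the 8 libraries (Pearson r of log2 values, a description with no test), Lep was nearest to Aqp7 (0.995), Csad, Cebpa, Plin1 and Pla2g15, of which Aqp7, Cebpa and Plin1 are on the adipocyte marker list. Adipoq was nearest to Gm23134 (0.994), Nnat, Aqp7, Fah and Mgst1, and Mrap to Gm23134 (0.996), Phgdh, Nnat, Ces2g and Cdo1. Retn was nearest to Agpat3 (0.988), Acss3, Dlg2, Csad and Capn2, and Cfd to L3hypdh (0.991), Thrsp, Fbxl6, Agpat3 and Gm23134. Rbp4 was nearest to Pex11a (0.998), Gm2a, Ugt1a3, S100b and RGD1309534. Mc2r was nearest to Gpihbp1 (0.990), Gin1, Cyp4b1, Plpp6 and Agt. Adrb3 was nearest to Hacd2 (0.961), AABR07028488.1, Efna5, Dgat2 and Aoc3. Nampt was nearest to Tnfrsf26 (0.990), Fam222a, Fmo5, Elavl1 and Sod2, none of which was near any other member. After removal of the group means, the mean of the 5 genes past both thresholds was nearest to Adk (0.996), Uck1, Plpp6, Gm23134 and Ctdspl.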

How the data were processed

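The authors sequenced stranded, polyadenylated RNA, used HISAT2 2.1.0 for alignment to Rnor_6.0, and took gene counts and gene lengths from featureCounts 1.6.3. They deposited 1 table of FPKM (fragments per kilobase of gene length, scaled between libraries) for 15590 genes. Its deposited log2 fold changes and p-values are the authors' own comparison, made with DESeq2 1.30.1, and were not used here.

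Whole reads were recovered from the steps between FPKM values for 100% of genes (tolerance 0.02 reads), giving a depth of 11350560 to 17897056 reads per library. A value at or under 3 reads was taken as at the floor, which covers counting error only. The design assumed FPKM, so the recovered reads entered only an alternative.

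The test kept genes that reached 0.5 FPKM in 4 or more of the 8 libraries (1727 were left out) and ran on log2(FPKM + 0.5) with limma 3.58.1 in R 4.3.3 (lmFit, eBayes with a trend), two-sided, without covariates, with Benjamini-Hochberg adjustment over all 13863. Calls needed an adjusted p under 0.05 and a fold of at least 2. The log2(FPKM + 0.5) scale understates changes of low genes. The fit was tested on simulated data, where its share of false calls was above the nominal level. No 2 libraries of a group agreed within counting noise. Other values were computed in Python 3.11.15 with pandas 2.3.3 and numpy 2.4.6. Promoter sequences are those of RefSeq for GRCr8.

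The members and gene lists were chosen with earlier results of these data known. Named were all members, up to 4 genes with the largest change past both thresholds and the 2 most abundant genes of each pathway list, and the 5 genes most like each member. Lepr, Adipor2, Stat3, Ptpn1, Stra6, Mc4r, Mc5r, Nnmt and C3 and the markers named singly were added after their values were seen. Some genes that this rule names are not reported here. Alternatives were pseudocounts of 0.1 and 1, all genes unfiltered, a minimum mean of 2 FPKM, TPM scaling, quantile scaling, array weights, a block for the replicate number, the adjusted p alone, protein-coding genes only, limma's voom on recovered reads, and each library left out in turn.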

Additional observations from a re-analysis of the deposited data

Results flagged for a closer look

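In the 0 h p.r. group, Mc2r in sample 1 stood apart from the other 3 samples. It was at 1.44 FPKM (22 recovered reads) against 3.26, 3.33 and 3.23 FPKM, and on the log2(FPKM + 0.5) scale its gap to the nearest sample was 0.961 of the range of the group, above Dixon's 95% critical value for 4 samples. Of 18 groups examined (9 genes in 2 groups) this was the only one, and chance marks about 1 in 20 groups. Post-run sample 1 also had the lowest adipocyte marker mean (4.17) and the highest skeletal muscle marker mean (11.3, log2 scale), and their part in this value was not tested. Without sample 1 the log2 fold change of Mc2r stayed past both thresholds.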

How the results depend on the processing

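The count of 5 members past both thresholds became 2 with TPM scaling (Retn and Mc2r) and 2 to 7 when 1 library was left out. It became 7 with array weights, where Mrap (0.0219) and Rbp4 (0.0249) also passed, and 6 with a pseudocount of 1 or protein-coding genes only, where Mrap passed (0.0499 and 0.0459, adjusted p by limma). With TPM scaling, Lep, Adipoq and Cfd had adjusted p of 0.0625, 0.0703 and 0.0608 by limma. Nampt, higher at the adjusted p alone in the main fit, then missed it at 0.0877 by limma. The pathway genes past both thresholds, 8 in all, became 5 with quantile scaling, 5 with TPM scaling and 4 to 9 with 1 library left out. The 5 adipocyte markers past both thresholds became 1 with TPM scaling, 10 with array weights and 1 to 8 with 1 library left out. The causes were not tested. No member changed direction under any alternative fit. All tested genes past both thresholds numbered 374, and 171 with TPM scaling, 505 with array weights and 195 to 516 with 1 library left out.

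With a replicate block, 1 member (Mc2r, adjusted p = 0.0476 by limma), 1 adipocyte marker and 5 pathway genes passed, and 212 of all genes. Nampt had an adjusted p of 0.0536 by limma there. Same-numbered libraries correlated in their deviations at -0.141 to 0.0717, within the -0.249 to 0.234 of differently numbered ones. With 4 libraries per group this cannot decide whether the numbers pair the samples. The labels do not say that they do, and the main fit used no block. Adrb3 had the lowest depth of the members (3 to 88 reads per library).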
